A study of Rattus norvegicus with 12 samples.

Results

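The nuclear genes of the mitochondrial respiratory chain were described in rat uterus across casein (CAS) and soy protein isolate (SPI) diets with and without 17β-estradiol (E2), the main ovarian estrogen. Genes were taken by name alone. A gene was a member if its symbol began with Ndufa, Ndufb, Ndufc, Ndufs, Ndufv, Sdha to Sdhd, Uqcr, Cox4 to Cox8 or Atp5. This gave 83 of the 16493 gene symbols, 38 for complex I, 5 for complex II, 7 for complex III, 17 for complex IV and 16 for complex V. Of these, 74 encode subunits. The other 9 carry such a name but are not subunits (Ndufaf1, Ndufaf3, Ndufaf4, Ndufa10l1, Sdhaf2, Cox4nb, Cox6c-ps1, Atp5s and Atp5sl). Except for Cox4nb, they are assembly factors, relatives or a pseudogene. Cox4nb is now named Emc8 and is counted with complex IV by its older name alone. No gene of the mitochondrial genome was among the symbols, so the subunits it encodes are not analysed here.

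All groups were female Sprague-Dawley rats that had been ovariectomized at postnatal day (PND) 50 and were collected at PND65, so the CAS group also lacked ovarian estrogen. From PND30 on, CAS and SPI rats ate diets that differed in the protein source, casein being a milk protein and soy protein isolate carrying plant isoflavones. E2 was given at 5 μg/kg/d to the groups named CAS-E2 and SPI-E2. Each group had 3 libraries, and each library was a pool of RNA from 2 uteri, so 6 uteri stand behind each group and every error given is that between pools. The libraries of each group were combined for sequencing, and the effect of a sequencing lane cannot be told apart from that of a group.

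The respiratory chain passes electrons from NADH through complex I, or from succinate through complex II, to complex III, cytochrome c and complex IV, which reduces oxygen. The protons pumped on the way drive complex V, the ATP synthase. Complexes I, III, IV and V also hold subunits encoded in mitochondrial DNA, while complex II is wholly nuclear. The core subunits mostly carry the catalytic and redox centres, and the accessory subunits around them mostly serve assembly, stability and regulation. In complex V, Atp5a1, Atp5b, Atp5c1, Atp5d and Atp5e were counted as core here. Its other subunits, among them Atp5g1, Atp5g2 and Atp5g3 of the ATP synthase ring, were counted as accessory. Estrogen is a growth stimulus for the ovariectomized uterus, in which epithelium, stroma and smooth muscle all contain mitochondria.

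Values are FPKM, fragments per kilobase of transcript scaled to the mapped reads of each library, summed over the transcripts of each gene. Being per length, they allow a rough comparison between genes, which was not checked for bias in short transcripts. Differences are log2 fold changes of FPKM + 1 from limma, with Benjamini-Hochberg adjustment over the 10279 genes with at least 1 FPKM in at least 3 of the 12 libraries. A gene is called higher or lower at an adjusted p under 0.05. Of the 83 members, 80 were tested. Cox8c (a testis form) and Ndufa11 were listed at 0 in every library, and the pseudogene Cox6c-ps1 only reached 0.157 FPKM, in SPI-E2 2. In rn4, the genome build of the files, Ndufa11 is placed on the unplaced sequence Un. Whether its 0 comes from the build was not tested.

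The promoters of members are shown first, because the members share sequence features that the names did not use. RefSeq promoters of the GRCr8 assembly, which run from 250 bases before to 50 after the start of each gene, were found for 70 of the 83 members. Those without an entry included Atp5g3, Atp5h, Atp5sl, Cox4i2, Cox6a1, Cox6c, Cox6c-ps1, Ndufa10l1, Ndufa8, Ndufb9, Uqcr11 and Uqcrb. Both strands were searched for TGCGCA (the core of the site of NRF1), CCGGAAG (the ETS site that GABPA binds), ATGGCGG (the YY1 site), TCAAGGTCA (the site of ESRRA) and the ESR1 palindrome, GGTCA and TGACC set 3 bases apart. TGCGCA reads the same on both strands, and the ESRRA site ends in the GGTCA half-site. The NRF1 core was in 20 of the 70 members' promoters (28.6%) and in 7.2% of all 33469 promoters. The ETS site was in 22 members (31.4%) and in 8.7% of all promoters. The YY1 site was in 16 members (22.9%) and in 4.8% of all promoters. The ESRRA site was in 1 member, 1.4% against 0.4%. The ESR1 palindrome was in none of the 70, and in 9 promoters of all 33469. Members had a median of 20.5 CpG dinucleotides in this window and all promoters 7.0. Protein-coding genes alone had a median of 11.0 CpG, with the NRF1, ETS and YY1 letters in 8.7%, 10.7% and 6.0% of 21851 promoters.

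A promoter with each kind of match, from a gene that passed a test in the comparisons that follow, is given with one that has none. The capitals mark the matches, ETS as CCGGAAG or CTTCCGG, YY1 as ATGGCGG or CCGCCAT and NRF1 as TGCGCA. Ndufa1 is at chrX:121293506-121293805 (minus strand), Uqcrh at chr5:134790833-134791132 (minus strand), Sdha at chr1:30764303-30764602 (plus strand) and Cox8b at chr1:205408224-205408523 (minus strand), all on GRCr8.
Ndufa1: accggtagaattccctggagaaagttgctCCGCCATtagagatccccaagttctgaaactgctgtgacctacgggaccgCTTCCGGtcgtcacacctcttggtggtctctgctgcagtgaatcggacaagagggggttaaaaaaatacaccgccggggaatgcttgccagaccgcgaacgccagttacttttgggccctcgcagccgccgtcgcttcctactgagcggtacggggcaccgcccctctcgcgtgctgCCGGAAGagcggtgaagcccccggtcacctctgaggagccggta
Uqcrh: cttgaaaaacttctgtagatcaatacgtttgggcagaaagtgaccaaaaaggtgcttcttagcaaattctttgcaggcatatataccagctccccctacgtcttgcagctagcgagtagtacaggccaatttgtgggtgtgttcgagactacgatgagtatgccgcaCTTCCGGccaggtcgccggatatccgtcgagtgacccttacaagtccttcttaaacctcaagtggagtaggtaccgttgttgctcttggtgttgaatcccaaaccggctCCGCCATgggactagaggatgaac
Sdha: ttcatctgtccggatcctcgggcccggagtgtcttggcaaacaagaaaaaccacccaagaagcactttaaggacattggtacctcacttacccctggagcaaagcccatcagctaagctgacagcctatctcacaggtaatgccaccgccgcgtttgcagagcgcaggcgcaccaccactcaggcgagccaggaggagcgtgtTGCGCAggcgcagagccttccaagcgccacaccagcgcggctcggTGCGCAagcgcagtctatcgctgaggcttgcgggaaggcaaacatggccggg
Cox8b: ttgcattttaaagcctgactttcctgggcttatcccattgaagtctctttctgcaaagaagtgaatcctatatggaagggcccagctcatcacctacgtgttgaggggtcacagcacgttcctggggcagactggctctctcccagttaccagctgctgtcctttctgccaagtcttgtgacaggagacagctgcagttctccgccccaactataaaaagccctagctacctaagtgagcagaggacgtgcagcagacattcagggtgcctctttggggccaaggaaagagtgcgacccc
Ndufa1 has 2 ETS and 1 YY1 match and 25 CpG, Uqcrh 1 ETS and 1 YY1 match and 14 CpG, and Sdha 2 NRF1 matches and 21 CpG. Cox8b, a form of the last small subunit of complex IV that is known from heart and skeletal muscle, has no match and 5 CpG, as has Cox6a2, the striated muscle form of another complex IV subunit. In CAS-E2 against CAS, the 41 tested members with any of the 3 sites had a median log2 fold change of 0.17 and the 27 without one of 0.19. In SPI-E2 against SPI the medians were 0.36 and 0.40.

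Members were among the most abundant uterine messages. Their mean over the 12 libraries had a median of 37.8 FPKM, and 56 of the 80 were in the upper 10% of the genes tested. Cox8a, the general form of the last subunit of complex IV, was the most abundant at 361 FPKM, followed by Cox6a1 at 208 FPKM and Cox4i1 at 204 FPKM. The most abundant in complex V were Atp5l, a subunit of the membrane part (182 FPKM), Atp5b, the catalytic β subunit (180 FPKM), and Atp5g2, a c-ring gene (155 FPKM). In complex I they were Ndufb8 (76.8 FPKM), Ndufb9 (55.0 FPKM) and Ndufb7 (53.9 FPKM). Uqcr11 led complex III at 133 FPKM, before Uqcrh at 74.8 FPKM and Uqcrfs1, the Rieske iron-sulfur protein, at 37.0 FPKM. In complex II, Sdhc (38.6 FPKM), Sdhb (35.3 FPKM), Sdhd (29.8 FPKM) and Sdha (27.7 FPKM) lay close together. The lowest mean among the tested members was 1.62 FPKM (Atp5s).

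The libraries had between 6353210 and 9862180 mapped reads by the ratio of coverage to FPKM in the files. Coverage averaged 11.1 reads per base for the median member, from 0.481 to 106. Smooth muscle markers (Myh11 and 5 others) summed to between 2020 and 4736 FPKM in every library, and epithelial markers to at least 127 FPKM. Mb, a marker of skeletal and heart muscle, and Ucp1, one of brown fat, were at or near 0, but their lists were not. The 9 striated muscle markers summed to between 25.3 and 67.7 FPKM in the 12 libraries. The 6 fat markers summed to between 67.0 and 514 FPKM. SPI 1 stood apart with 1402 FPKM of liver genes, against 11.4 to 241.5 FPKM in the other 11 libraries. In bulk RNA, fewer cells of a type and less RNA per cell cannot be told apart.

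In replicate order, the summed FPKM of complex I was 1149, 1013 and 1011 in the CAS libraries and 1082, 1408 and 1364 in the CAS-E2 libraries. The SPI libraries had 1153, 851 and 973, and the SPI-E2 libraries 1110, 1580 and 1263. With or without E2 the groups overlapped, since CAS-E2 1 lay below CAS 1 and SPI-E2 1 below SPI 1. In complex IV the 3 CAS-E2 libraries (1679, 2044 and 1806 FPKM) all lay above the CAS libraries (1562, 1365 and 1357 FPKM). The SPI-E2 sums of complex IV were 1453, 2290 and 1759 FPKM, which overlapped with SPI at 1491, 1055 and 1239 FPKM. Complex III reached 350, 411 and 457 FPKM in CAS-E2 and 344, 300 and 312 FPKM in CAS, without overlap. With soy its sums were 327, 245 and 278 FPKM without E2 and 325, 496 and 397 FPKM with it, which overlapped at SPI-E2 1. Complex V overlapped, at 1547 ± 191 FPKM (SD, n = 3) in CAS-E2 and 1372 ± 103 FPKM in CAS, and at 1623 ± 373 FPKM in SPI-E2 against SPI at 1253 ± 191 FPKM. Complex II also overlapped, at 148 ± 8.2 FPKM in CAS-E2 and 153 ± 12.9 FPKM in CAS, and at 159 ± 26.4 FPKM in SPI-E2 against SPI at 127 ± 19.0 FPKM. The total FPKM of all genes differed between libraries, and the sums of the complexes were not scaled to it. As a share of that total, all members together took 2.72% to 2.84% in CAS and 2.77% to 3.00% in CAS-E2. Their share was 2.53% to 3.01% in SPI and 2.80% to 3.09% in SPI-E2, so the shares overlapped in both diets.

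**Figure D1:**
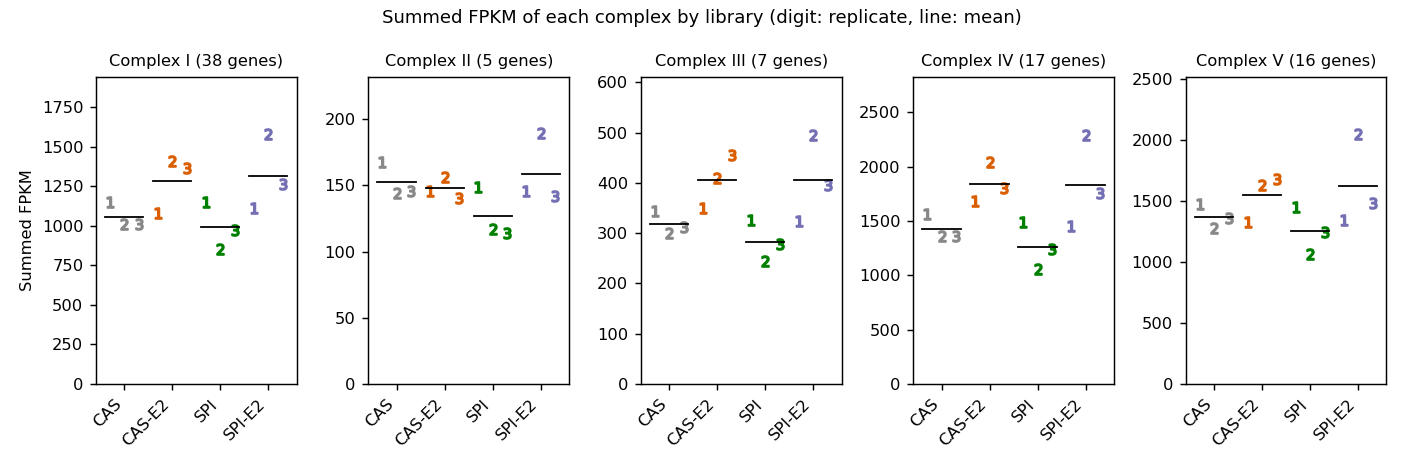
Summed FPKM of the members of each complex (vertical axes, linear from 0) in each library of the 4 groups (digits give the replicate number, lines the group means). SPI-E2 2 is the highest of the 12 libraries in each complex, and in complexes III and IV the CAS-E2 libraries lie above the CAS libraries.

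One library set the upper end in many genes. SPI-E2 2 was the highest of the 12 libraries in 45 of the 80 members (56.2%), and in 22.6% of all genes tested. SPI 1 was the highest of its group in 66 members, against 46.8% of all genes, and SPI-E2 1 the lowest of its group in 48, against 41.8%. The epithelial markers were also lowest of their group in SPI-E2 1, at 507 FPKM, but were alike in SPI-E2 2 and 3, at 1781 and 1778 FPKM. Smooth muscle markers summed to 2689, 4463 and 2832 FPKM in SPI-E2 1, 2 and 3. The part of either list in the members' levels was not tested.

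In the casein diet, some accessory subunits, such as Cox8b, Cox6a2 and Ndufa2, were higher with E2, while most members did not pass the test. Of the 80 members, 11 (13.8%) were higher in CAS-E2 than in CAS, where 17.1% of all genes tested were higher. They were 5 of 37 in complex I, 5 of 15 in complex IV, 1 of 7 in complex III and none in complexes II and V. Lower members were 3 of 80, where 22% of all genes were lower. By class, 10 of the 55 accessory subunits tested (18.2%) were higher and none lower, and of the 17 core subunits none was higher and 2 were lower. The accessory share was close to the 17.1% of all genes. No member of complex IV, which gave 5 of the 10, is classed as core, so the classes also differ in complex. With a 2-fold change as well, 3 members were higher and none was lower, beside 7.99% and 6.37% of all genes. The 3 CAS-E2 libraries all lay above the CAS libraries in 19 members (23.9% of all genes) and all below in 7 (31.2%). The members' median log2 fold change was 0.19 and that of all genes -0.07, but under quantile normalization it was -0.04 for members and -0.06 for all genes. Quantile normalization gave 10 members higher and 10 lower (18.7% and 22.9% of all genes). The number higher was 18 with median-ratio scaling (21.4% of all genes higher) and 38 with array weights (29.7%). Leaving out 1 library changed the number higher to 5 without CAS 2, CAS 3 or CAS-E2 2 (12.3%, 12.1% and 12.3% of all genes). It was 6 without CAS-E2 3 (15.2%) and 16 without CAS-E2 1 (15.8%). The number lower went to 0 without CAS 1, CAS 2 or CAS 3 (15.7%, 15.2% and 16.8% of all genes). It was 1 without CAS-E2 1 or CAS-E2 2 (20.1% and 18.6%) and 2 without CAS-E2 3 or SPI 3 (15.9% and 20.5%).

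Cox8b had the largest rise, from levels near the detection limit. It was listed at 1.13, 0 and 0 FPKM in CAS and at 3.47, 8.29 and 7.44 FPKM in CAS-E2. The groups did not overlap, and the log2 fold change was 2.45 (SE 0.42, limma adjusted p = 0.00132). In the soy diet it was listed at 1.11, 0 and 0.870 FPKM without E2 and 1.14, 3.46 and 1.22 FPKM with E2, where the log2 fold change did not pass the test. As a share of Cox8a, Cox8b and Cox8c together, Cox8b made up 0.88% to 1.93% in CAS-E2 and at most 0.30% in CAS. The gene lies on chromosome 1 of rn4, the build of the files, at 201057314 to 201058774, with 319 exonic bases.

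Cox6a2 was also low and rose in CAS-E2. Its levels were 2.34, 1.77 and 2.74 FPKM in CAS and 8.99, 13.3 and 4.49 FPKM in CAS-E2, without overlap (log2 fold change 1.502, SE 0.50, limma adjusted p = 0.0328). Its share of Cox6a1 and Cox6a2 together was 1.38% ± 0.29 (SD, n = 3) in CAS and 3.15% ± 1.38 in CAS-E2. Nearly all its FPKM was assigned by Cufflinks to a non-coding transcript variant of the gene (NR_037674), with the coding one above 1 FPKM in CAS-E2 2 and SPI-E2 2 alone. The call ended without CAS 1, CAS 2, CAS 3, CAS-E2 1 or CAS-E2 2 (adjusted p from limma up to 0.119), and also with a pseudocount of 0.1 (0.059) or no filter on low values (0.0538). The striated muscle markers, a list that shares Cox6a2's main tissue, summed to 42.8 ± 15.9 FPKM in CAS-E2 and 57.7 ± 15.0 FPKM in CAS. Of the 4 tested genes of that list, 2 (Tnnc2 and Tnnt3) were lower and none higher in each diet. Of all genes, 22% were lower in casein and 6.57% in soy.

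Ndufa2, a small accessory subunit of the matrix arm of complex I, passed in CAS-E2 and in SPI-E2 against CAS under all 22 alternative settings run. It was at 29.3, 18.1 and 23.5 FPKM in CAS and at 45.6, 66.0 and 62.2 FPKM in CAS-E2. All CAS-E2 libraries exceeded all CAS libraries (log2 fold change 1.26, SE 0.21, limma adjusted p = 0.00111). With soy it was at 32.0, 29.1 and 29.2 FPKM without E2 and at 37.0, 47.7 and 54.3 FPKM with it, again without overlap. The log2 fold change in soy was 0.59 and missed the threshold (limma adjusted p = 0.0518).

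Cox5a and Ndufa1 rose with E2 in both diets. Cox5a, a subunit of complex IV on the matrix side, was at 59.9, 44.9 and 57.4 FPKM in CAS and 84.1, 102 and 138 FPKM in CAS-E2. Its soy levels were 69.2, 45.2 and 44.5 FPKM without E2 and 73.6, 158 and 134 FPKM with it. Neither pair of groups overlapped, although SPI-E2 1 lay just above SPI 1. The log2 fold changes were 0.97 (SE 0.29, adjusted p = 0.0213) in casein and 1.15 (SE 0.29, limma adjusted p = 0.0142) in soy. The casein call of Cox5a ended without CAS 2 or CAS-E2 3 (adjusted p up to 0.0809 from limma), and the soy call without SPI 2, SPI 3, SPI-E2 2 or SPI-E2 3 (up to 0.0661) or with only the 2 groups in the fit (0.0556).

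Ndufa1, a small membrane subunit of complex I encoded on the X chromosome, was at 35.6, 25.5 and 34.3 FPKM in CAS and 58.4, 62.2 and 63.1 FPKM in CAS-E2. In SPI it was at 37.9, 23.7 and 24.8 FPKM and in SPI-E2 at 39.9, 103 and 59.2 FPKM. The E2 libraries were above their controls in both diets, in soy by a narrow margin at SPI-E2 1. The log2 fold change was 0.94 (SE 0.29, limma adjusted p = 0.0258) in casein and 1.12 (SE 0.29, adjusted p = 0.0164) in soy. Ndufa1 lost the casein call without CAS 2, CAS 3, CAS-E2 2 or CAS-E2 3 (adjusted p up to 0.0973 from limma) and the soy call without SPI 2, SPI 3 or SPI-E2 2 (up to 0.0666) or with only the 2 groups in the fit (0.0753).

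The third member called in both diets was Cox6a1, the general form of the subunit that Cox6a2 replaces in striated muscle. It went from 163 ± 11.4 FPKM (SD, n = 3) in CAS to 273 ± 36.2 FPKM in CAS-E2, and from 150 ± 23.9 FPKM in SPI to 247 ± 60.6 FPKM in SPI-E2. The log2 fold changes were 0.73 and 0.70. The casein call ended without CAS 2, CAS 3 or CAS-E2 2 (adjusted p up to 0.0612 from limma). The soy call of Cox6a1 ended without SPI 2, SPI 3, SPI-E2 2 or SPI-E2 3 (adjusted p up to 0.121 from limma), and under median-ratio scaling (0.0532), quantile normalization (0.0957) or with only the 2 groups in the fit (0.0923). Cox7b, Ndufs5, Ndufb5, Ndufaf4 and Uqcrh made up the rest of the members higher in CAS-E2, with log2 fold changes from 0.64 (Ndufb5) to 0.94 (Cox7b). Ndufaf4, an assembly factor of complex I, and Ndufs5 kept the call under the 22 alternative settings run. Uqcrh, the hinge protein of complex III, lost it under 11 of 22.

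The 3 lower members in CAS-E2 included 2 core subunits. Sdha, the flavoprotein that oxidizes succinate in complex II, was at 36.5, 33.4 and 34.1 FPKM in CAS and 25.9, 24.6 and 19.5 FPKM in CAS-E2, without overlap. Its log2 fold change was -0.56 (SE 0.17, limma adjusted p = 0.0238). Sdhb, Sdhc and Sdhd did not pass the test, with log2 fold changes of -0.03 (SE 0.19), 0.21 (SE 0.15) and -0.17 (SE 0.20). Ndufs7, which holds the last iron-sulfur cluster before ubiquinone in complex I, was at 43.6, 50.8 and 46.6 FPKM in CAS and 30.4, 23.3 and 28.0 FPKM in CAS-E2. Its log2 fold change was -0.77 (SE 0.28, limma adjusted p = 0.044), and the call ended without any 1 of the 6 libraries compared or of SPI 3 (adjusted p up to 0.131), with no filter on low values (0.0595) and with the replicate number as a block (0.0528). The Sdha call ended without CAS 1, CAS 2, CAS 3 or CAS-E2 3 (adjusted p up to 0.084 from limma). Atp5sl, a relative of an ATP synthase factor, had a log2 fold change of -0.51 (SE 0.15), a call that ended without CAS 1, CAS 2, CAS 3, CAS-E2 1 or CAS-E2 2 (adjusted p up to 0.0608 from limma).

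**Figure D2:**
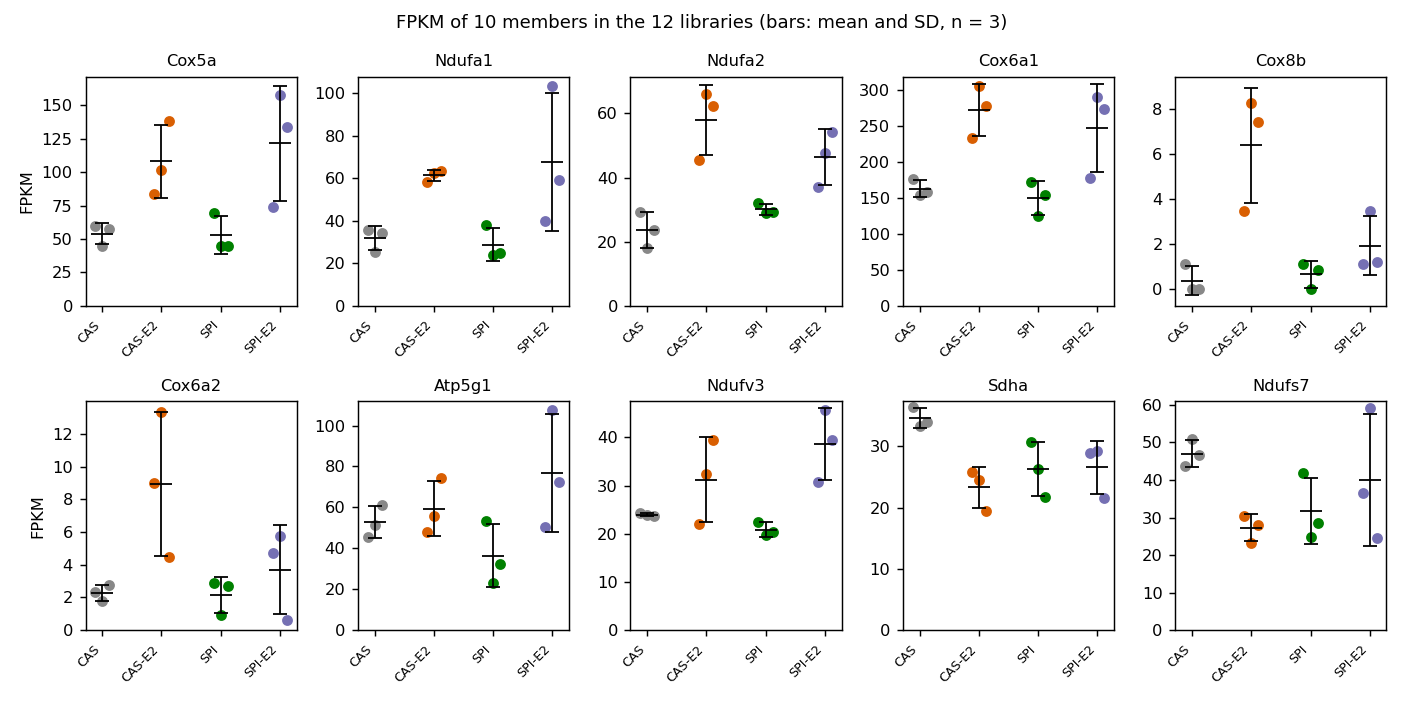
FPKM (linear axes) of 10 members in each of the 12 libraries, as points, with the mean and SD of the 3 libraries of each group as bars. Cox5a and Ndufa1 are above their controls in every E2 library of both diets, Cox8b and Cox6a2 have their highest means in CAS-E2, and Sdha and Ndufs7 in CAS.

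In the soy diet, 11 of 80 members (13.8%) were higher in SPI-E2 than in SPI, where 21.1% of all genes were higher. Cox5a, Ndufa1, Atp5g1 and Ndufv3 had the largest rises among them. None was lower (limma, and also none at an unadjusted p under 0.05), where 6.57% of all genes were lower. The higher members were 4 of 37 in complex I, 3 of 15 in complex IV, 2 of 7 in complex III, 1 of 5 in complex II and 1 of 16 in complex V. With a 2-fold change as well, 3 were higher and none lower, beside 8.39% and 1.86% of all genes. All 3 SPI-E2 libraries lay above the SPI libraries in 18 members (30.1% of all genes) and below in none (11.2%). The members' median log2 fold change was 0.38 and that of all genes 0.11, but under quantile normalization -0.04 and -0.06. Quantile normalization gave 2 members higher and 4 lower (14.1% and 14.6% of all genes). Under median-ratio scaling the medians were 0.23 for members and -0.01 for all genes. Leaving out SPI-E2 2 or SPI 2 left 1 member higher (11.5% and 12.4% of all genes), and leaving out SPI 3 left 2 (14.1%). Leaving out SPI-E2 3 left 5 (13.6%) and CAS 2 left 7 (18.5%), while leaving out SPI-E2 1 raised the number to 26 (27.7%).

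Atp5g1, one of the 3 genes for the same c subunit of the ATP synthase ring, had 53.4, 23.1 and 32.6 FPKM in SPI and 50.6, 107 and 72.2 FPKM in SPI-E2. SPI-E2 1 lay below SPI 1, so the groups overlapped, and the log2 fold change was 1.07 (SE 0.32, limma adjusted p = 0.0276). Its share of the FPKM of the 3 c-ring genes was 12.3% ± 3.34 (SD, n = 3) in SPI and 20.1% ± 4.37 in SPI-E2, and 16.7% ± 2.97 in CAS and 18.2% ± 3.85 in CAS-E2. Atp5g2 held the largest share in each group, from 43.9% ± 6.24 in SPI-E2 to 53.8% ± 4.71 in SPI. Without SPI 2, SPI 3, SPI-E2 2 or SPI-E2 3 the Atp5g1 call ended (adjusted p up to 0.118 from limma), as it did under quantile normalization (0.0846) and with only the 2 groups in the fit (0.0891).

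Ndufv3, an accessory subunit beside the NADH site of complex I, had a log2 fold change of 0.84 in SPI-E2 against SPI (SE 0.20, limma adjusted p = 0.0111), a call that ended without SPI-E2 2 (0.0506) and under quantile normalization (0.0868). It was 0.65 in SPI-E2 against CAS. Its 2 annotated transcripts moved apart. The shorter, with 485 exonic bases, had 10.7, 7.50 and 7.53 FPKM in SPI 1 to 3 and 19.0, 36.04 and 29.3 FPKM in SPI-E2 1 to 3. In CAS it was at 12.5, 11.9 and 13.5 FPKM, and in CAS-E2 at 13.9, 20.2 and 26.9 FPKM. In both diets the E2 libraries were all above their controls. The longer transcript, with 1535 exonic bases, was at 12.3 ± 0.51 FPKM (SD, n = 3) in SPI and 10.5 ± 1.10 FPKM in SPI-E2, and at 11.3 ± 1.05 FPKM in CAS and 10.9 ± 2.42 FPKM in CAS-E2. This split was seen after the values were examined, and transcripts were not tested. Cufflinks divides reads among the transcripts of a gene, and its division was not stable in Ndufaf3, whose FPKM was placed at 95.4% or more on 1 of 2 transcripts in each library, but not on the same one within any group.

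**Figure D3:**
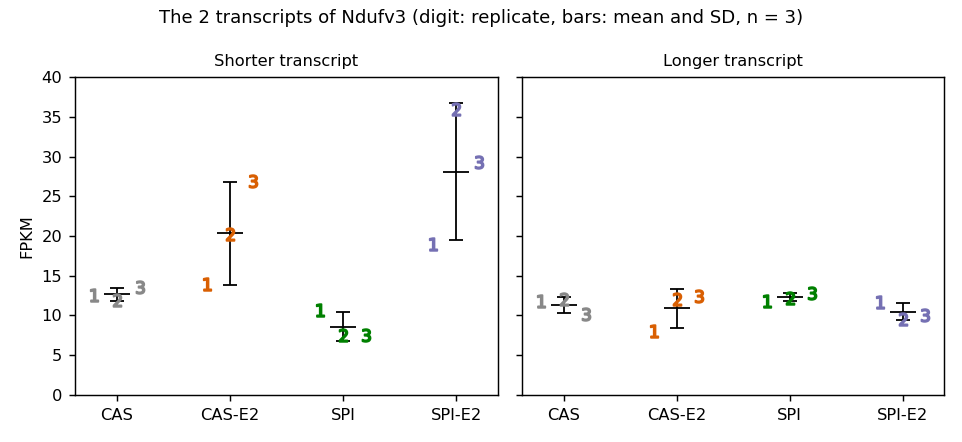
FPKM (linear axis, shared) of the shorter and longer transcripts of Ndufv3 in the 12 libraries (digits give the replicate, bars the mean and SD of 3 libraries). The shorter transcript is above its control libraries in all 6 E2 libraries, and the longer stays between 8.10 and 12.8 FPKM.

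The other members higher in SPI-E2 than in SPI were Ndufb8, Ndufa8, Uqcr11, Cox5b, Uqcrc1 and Sdhc, with log2 fold changes from 0.44 (Sdhc) to 0.67 (Ndufb8). Sdhc, an anchor of complex II in the membrane, and Uqcrc1, a core protein of complex III without a redox centre, were the smallest of these and lost the call in 14 and 16 of 22 alternative settings, as Cox5b did in 15 and Uqcr11 in 14.

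**Figure D4:**
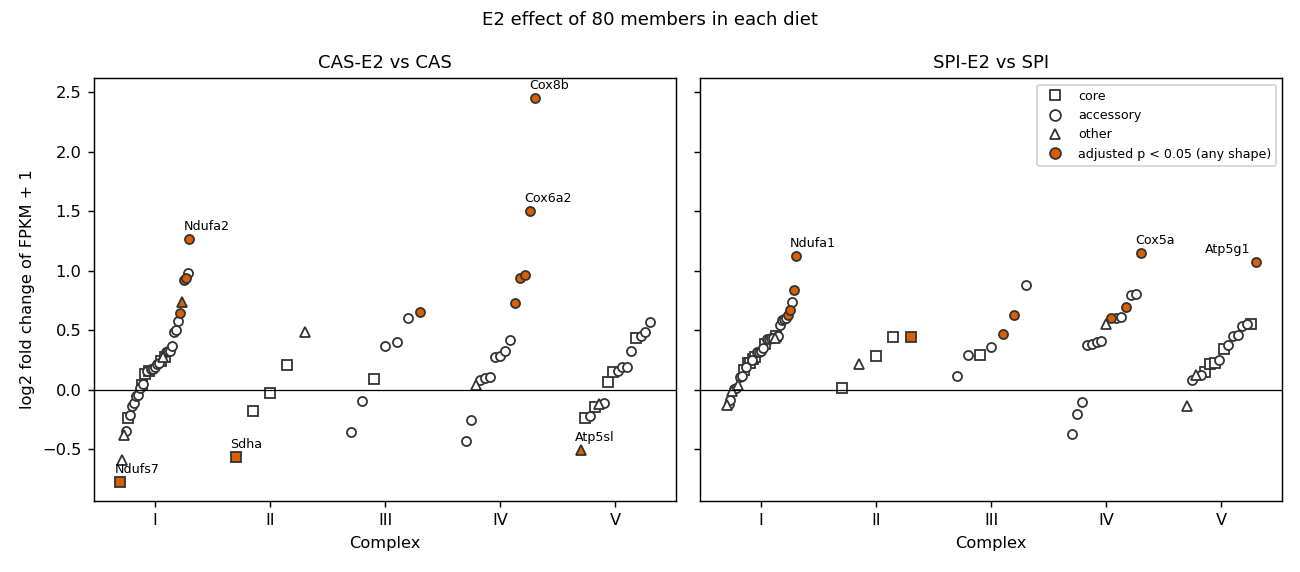
Log2 fold changes of FPKM + 1 (vertical axis, shared) of the 80 tested members in each complex (horizontal axis), sorted by size within each complex, for CAS-E2 against CAS and SPI-E2 against SPI. Squares are core subunits, circles accessory subunits, triangles other members, and filled symbols are called, 11 higher and 3 lower in casein and 11 higher in soy.

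Against CAS, 4 members were higher in SPI-E2 (Cox5a, Ndufa1, Ndufa2 and Ndufv3), where 14.4% of all genes were higher, and none was lower (limma, 1 at an unadjusted p under 0.05), where 14.9% were. With a 2-fold change, 1 member (Cox5a) was higher and none lower, beside 6.84% and 3.89% of all genes. Quantile normalization gave 4 higher and 6 lower (14.5% and 17.5% of all genes). The number higher fell to 1 without CAS 2, SPI-E2 2 or SPI-E2 3 (8.82%, 8.2% and 7.79% of all genes). It was 2 without CAS 3 (8.87%) and rose to 14 without SPI-E2 1 (21.4%). The calls of Ndufv3 and Ndufa1 each ended in 6 of 22 alternative settings, among them every removal of 1 CAS library, that of Cox5a ended without CAS 2, SPI-E2 2 or SPI-E2 3, and that of Ndufa2 held in all 22. This comparison uses the same CAS libraries as CAS-E2 against CAS, so the 2 are not independent.

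Soy alone moved no member past the threshold. In SPI against CAS none of the 80 was called by limma, where 0.0195% of all genes were. At an unadjusted p under 0.05, none was higher (0.807% of all genes) and 4 were lower (12% of all genes), which were Uqcrc1, Atp5sl, Ndufb11 and Sdha. The 3 SPI libraries lay all below CAS in 16 members (30.8% of all genes) and all above in none (1.97%). Sdha was at 30.7, 26.4 and 21.8 FPKM in SPI, below each CAS library, with a log2 fold change of -0.40 (SE 0.17, limma adjusted p = 0.373). The members' median log2 fold change was -0.11 and that of all genes -0.16, a median that median-ratio scaling moved to -0.01 for all genes and to 0.08 for members.

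With E2 in both groups, no member passed the test between the diets. SPI-E2 against CAS-E2 gave no called member, where 0.00973% of all genes were called. At an unadjusted p under 0.05, 2 members were higher (3.56% of all genes) and 2 lower (2.29%). The lower were Cox8b, with a log2 fold change of -1.35 (SE 0.42, limma adjusted p = 0.59), and Cox6a2, with -1.21 (SE 0.50). The higher were Ndufa8 and Uqcrc1, with 0.39 and 0.40. The difference of the E2 effect between the diets, tested as an interaction, was called for no member and for 0% of all genes. At an unadjusted p under 0.05, this difference, soy less casein, was positive in 5 members (13.3% of all genes) and negative in 2 (1.63%). A positive difference can also come from a fall in casein. Cox8b had the most negative difference of the E2 effects, at -1.65 (SE 0.59, limma adjusted p = 0.243). Ndufs7 had the most positive, at 1.04 (SE 0.39, adjusted p = 0.254), being lower in CAS-E2 than in CAS. In soy its levels were 41.7, 24.8 and 28.6 FPKM without E2 and 36.5, 59.1 and 24.6 FPKM with it, which overlapped.

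The E2 effects of the members in the 2 diets, which share no library, had the same sign in 61 of 80 members, 55 positive and 6 negative. Across the 80 members, which are not independent, Pearson's r was 0.49 and Spearman's rho 0.47, and over all genes tested r was 0.84. Both effects fell with transcript length, with a rho between log2 fold change and exonic length of -0.47 in casein and -0.33 in soy. The members higher in CAS-E2 had a median of 549 exonic bases, between 319 and 2053, and all tested members one of 711.5. Whether length has a part in the effects was not tested.

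**Figure D5:**
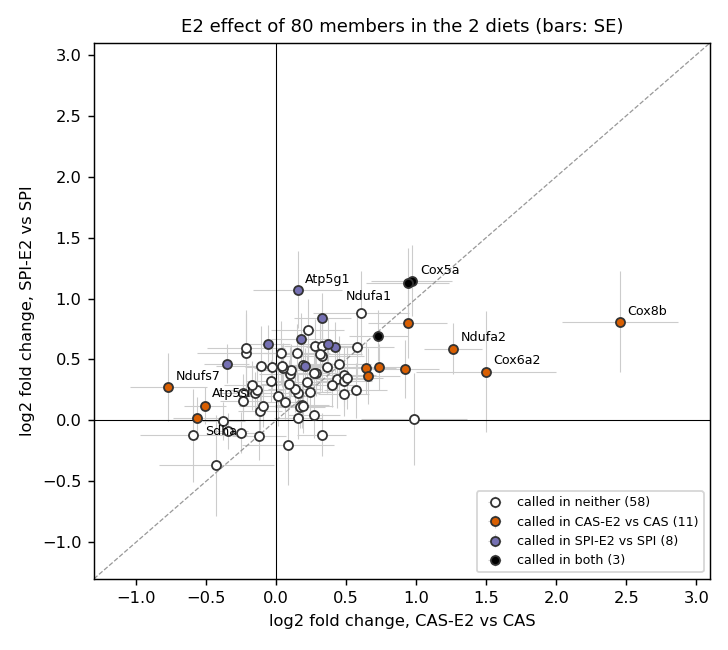
Log2 fold change of FPKM + 1 in SPI-E2 against SPI (vertical axis) and in CAS-E2 against CAS (horizontal axis) for the 80 tested members, with bars for the SE and a dashed line of equal effects. 3 members are called in both diets (black), 11 in casein alone, 8 in soy alone and 58 in neither.

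Between alternative forms of a subunit, Cox4i2, the form of Cox4i1 known from lung and low oxygen, made up 4.28% ± 1.79 (SD, n = 3) of the pair in CAS and 2.83% ± 1.03 in CAS-E2. In soy it made up 5.20% ± 2.16 without E2 and 3.21% ± 1.93 with it, and any pair of groups overlapped. Cox6b2, a form known from testis, was at 9.01 FPKM over the 12 libraries and did not pass in any comparison, nor did Cox7a2 (120 FPKM), Cox7a2l, a factor in joining complexes III and IV (53.6 FPKM), or Ndufa4, now placed in complex IV (51.4 FPKM). Some members have near-identical copies. Atp5h and Ndufa10 were each listed at 2 places in the genome and Ndufa10l1 lies within one of them, so reads may be split among copies and their values are uncertain. Atp5e and Ndufs6 were listed on chromosomes 14 and 2 of rn4, but their promoters lie on chromosomes 3 and 1 of GRCr8. Whether the listed places are copies was not tested, so these 2 values are uncertain as well.

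Other genes of the pathway were read from the same fit, where 17.1% of all genes were higher and 22% lower in casein and 21.1% higher and 6.57% lower in soy. In casein, 5 of 10 import genes (50%) were higher and none lower, led by Tomm70a and Timm23, a receptor and a channel for proteins entering mitochondria (log2 fold changes 0.69 and 0.73). In soy 5 of 10 (50%) were higher, led by Tomm20 and Tomm40 (0.59 and 0.74). Of 16 carriers and other genes that work with the complexes, 5 (31.2%) were higher in each diet. The list includes Coq7, Coq9 and Atpif1, and also Cyc1, a complex III subunit. The names that define members do not cover Cyc1, so the complex III sums lack it. Cycs, cytochrome c itself, had log2 fold changes of 1.34 (SE 0.24) in casein and 1.05 in soy, and Gpd2, which brings electrons from glycerol 3-phosphate, of 0.90 and 1.28. Slc25a5, an ADP/ATP carrier, rose by 0.69 and 0.92. Of 66 mitochondrial ribosomal proteins tested, 11 (16.7%) were higher in casein and 16 (24.2%) in soy, shares close to those of all genes, and none was lower in either. They were led by Mrpl54 (1.43 and 1.30), Mrps34 (0.88) in casein and Mrpl17 (1.23) in soy.

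Of the assembly factors outside the names above, 5 of 18 (27.8%) were lower in casein, where 22% of all genes were, and none was higher, with Oxa1l, which inserts proteins into the inner membrane (-0.89), and Ecsit (-0.55) first by adjusted p. In soy 1 of 18 (5.56%) was higher (Atpaf2, 0.65). Of 16 genes of biogenesis and mitochondrial DNA, 3 (18.8%) were higher and 4 (25%) lower in casein. Polrmt, the mitochondrial RNA polymerase, fell by 0.67 on the log2 scale, and Ppargc1a, a coactivator of mitochondrial biogenesis, fell by 1.01. In soy 3 (18.8%) were higher and none lower, led by Polg (0.89) and Esrra (0.98). In the TCA cycle, 1 of 15 (6.67%) was higher and 1 lower in casein, Idh3a at 0.90 and Idh2 at -1.25, and 3 of 15 (20%) were higher in soy, led by Idh3a (0.96) and Mdh2 (0.54). Of 8 oxidant defence genes, 2 (25%) were higher and 1 (12.5%) lower in each diet, with Sod2, the superoxide dismutase of mitochondria, at 1.64 and 1.39 and Ucp2 at 1.13 and 1.65.

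Markers of some cell types also differed with E2. Beside them, 17.1% of all genes were higher and 22% lower in casein, and 21.1% higher and 6.57% lower in soy. In casein the shares of smooth muscle markers lower (16.7%) and of fat markers higher (20%) were close to those of all genes. The 7 epithelial markers summed to 205 to 232 FPKM in CAS and 856 to 1473 FPKM in CAS-E2, with 6 of 7 higher, led by Krt19 and Krt8 (3.25 and 2.82). They summed to 127 to 163 FPKM in SPI and 507 to 1781 FPKM in SPI-E2, with 7 of 7 higher and the same genes first (3.98 and 3.45). Of 6 stromal markers, 2 were lower in casein (Lum and Dcn, -1.21 and -0.81) and 4 in soy, first Dcn and Col3a1 (-1.04 and -1.28). Of 5 immune markers 4 were higher in casein, led by Cd74 and Ptprc (1.70 and 1.15), and 2 in soy, Cd68 and Laptm5 (1.37 and 0.74). Of 3 endothelial markers 2 were lower in each diet, Tek and Cdh5. One smooth muscle marker of 6, Smtn, was lower in casein (-0.84) and none passed in soy. Of 5 tested fat markers, Adipoq was higher in casein (2.58) and none passed in soy, and none of 4 liver markers passed in either diet. The part of these shifts in the members' levels was not tested.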

How the data were processed

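Uterine poly-A RNA was sequenced in 12 libraries. The authors filtered 36-base single reads, used TopHat2 2.0.9 with Bowtie2 2.1.0 for alignment to rn4, and estimated transcripts with Cufflinks 2.1.1. CASAVA 1.7 is named besides in the submitters' notes on processing. The deposited values used are the FPKM and the coverage of each annotated transcript, held by the authors in a text attribute of each line. The line score was not used. No read counts are used here, so Cuffdiff was not repeated, and the depth was inferred from coverage and FPKM.

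FPKM was summed by gene symbol, 1 was added and log2 taken. Such fold changes understate those of genes with low values. Genes with at least 1 FPKM in at least 3 libraries were fitted over all 4 groups with limma 3.58.1 (R 4.3.3) with a variance trend, which was tested on simulated data. Tables were made with Python 3.11.15 and pandas 2.3.3, and plots with matplotlib 3.10.9. Calls use an adjusted p under 0.05, alone or with a 2-fold change. The members and lists were chosen with earlier results of these data known, so no p is given over members or lists. Named genes are the 3 most abundant members of each complex (all 4 subunits in complex II), the 3 largest called rises and falls in each comparison without overlap of the groups, members past 2-fold, isoform sets (those without a symbol in the files are not analysed here), members below the filter and the 2 called genes of each list with the smallest adjusted p. Other members named were chosen after their values were seen. Per the labels, libraries carry replicate numbers. Libraries with one number deviated from their group means together, with correlations over 0.1, in all 3 numbers between CAS-E2 and SPI-E2 alone (0.269, 0.117 and 0.336), and no source says what the numbers share. The alternatives were other pseudocounts, filters, scalings, fits, a replicate block and leaving out libraries.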

Additional observations from a re-analysis of the deposited data

How the results depend on the processing

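The counts of called members depended on scaling and on single libraries. The members' median log2 fold change kept its sign in the 6 comparisons under the other pseudocounts and the replicate block. Under quantile normalization it changed sign in CAS-E2 against CAS (-0.04), SPI-E2 against CAS (-0.002), SPI-E2 against SPI (-0.04) and SPI against CAS (0.05), and under median-ratio scaling in SPI against CAS (0.08), SPI-E2 against CAS-E2 (-0.003) and the interaction (-0.05). In SPI-E2 against CAS-E2 it also did so without CAS-E2 1 (-0.03) or SPI-E2 2 (-0.08). Shares in parentheses are those of all genes tested called the same way. For CAS-E2 against CAS, 18 members were higher with median-ratio scaling (21.4% of all genes) and 38 with array weights (29.7%). With 1 library left out 5 to 16 were higher (12.1% to 20.1%). With quantile normalization 10 were lower (22.9%), and with 1 library left out 0 to 3 (15.2% to 24.3%). For SPI-E2 against CAS, 11 were higher with median-ratio scaling (17.2%) and 17 with array weights (21.5%), which also gave 1 lower (22.9%). Without SPI 1 and SPI-E2 1 together 15 were higher (21.1%), and with 1 library left out 1 to 14 (7.79% to 21.4%). With quantile normalization 6 were lower (17.5%). For SPI-E2 against SPI, 6 were higher with median-ratio scaling (16.5%) and 2 with quantile normalization (14.1%), which also gave 4 lower (14.6%). With only the 2 groups in the fit 1 was higher (10.9%), and with array weights 20 (25.5%). Without SPI 1 and SPI-E2 1 together 30 were higher (26.6%), and with 1 library left out 1 to 26 (11.5% to 27.7%). Array weights also gave 1 member higher (0.846%) and 5 lower (13.6%) in SPI against CAS. In the interaction they gave 1 with a positive difference (3.03%).

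With the replicate number as a replicate block, 10 members were higher and 2 lower in CAS-E2 against CAS (16.9% and 22.9% of all genes). In that fit 4 were higher in SPI-E2 against CAS (14.2%) and 7 in SPI-E2 against SPI (20.6%). In SPI-E2 against CAS-E2, whose same-numbered libraries deviated together, the block fit over all 12 libraries called no member, as without the block. Median-ratio scaling without SPI-E2 2, which was chosen after seeing the data, gave 21 members higher in CAS-E2 against CAS (21.7% of all genes). It gave 1 in SPI-E2 against CAS (10.1%) and 0 in SPI-E2 against SPI (8.26%). The log2 fold change of Sdhc in SPI-E2 against SPI turned from 0.44 to just below 0, at -0.0002, under quantile normalization. Every other called member kept its direction under the alternatives run. The cause of these changes was not tested. Depth limits the members of low level most, such as Cox8b with a mean coverage of 0.682 reads per base.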
